A study of Mus musculus with 12 samples.

Results

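The genes described here are the interleukins and their receptor chains, together with the antagonists, decoy receptors and binding proteins that carry an interleukin symbol. They were taken as every gene symbol in the deposited tables that begins with Il and a digit, apart from rows that join several symbols and 2 symbols not reported here. This gave 82 genes of the 22923 symbols listed, of which 39 encode ligands and 43 encode receptor chains or proteins that restrain signalling. RNA came from the proximal hind limb muscle of 12 male mice of the FVB strain at 22 weeks of age, 3 mice in each of 4 groups. WT mice, which the sample titles call Flox, carry both αB-crystallin (Cryab) and HspB2 (Hspb2), a pair of small heat shock proteins of muscle. KO mice lack both, so the effect of losing 1 of them cannot be told apart from that of losing the other, and no label restricts the loss to a cell type. Mice of each genotype ate either normal chow (chow-fed) or a high fat diet in which fat supplies most of the calories (fat-fed).

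Interleukins are secreted proteins through which leukocytes and tissue cells signal to each other. Most bind a receptor made of a private chain and a chain shared by a family, such as the common gamma chain (Il2rg), gp130 (Il6st) or the IL-1 receptor accessory protein (Il1rap). The chains then act through JAK kinases and STAT factors or, in the IL-1 and IL-17 families, through adaptors that lead to NF-kB. Skeletal muscle is a known source of several of them, including IL-6 and IL-15, and muscle fibres also hold receptor chains, while leukocytes and vessels within the tissue add their own transcripts. In a bulk sample, fewer cells of a type and less RNA per cell cannot be told apart.

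The values are FPKM, which is scaled to transcript length and to library size, so levels can be set side by side between genes. How many reads each library held is unknown, and the relative depth read from the step between low values ran from 1 to 1.36. The FPKM of all genes summed to 10656382 in replicate 3 of the chow-fed KO mice and to between 499509 and 691621 in the other libraries. The source of this excess was not tested. A listed 0 can be a failed estimate, since the muscle actin gene Acta1 was listed at 0 in 2 libraries and lay between 22320 and 35170 FPKM in the others. Cryab was between 412 and 837 FPKM in the 6 WT samples and between 0.845 and 1.75 FPKM in the 6 KO samples, and Hspb2 was between 81.5 and 103.0 FPKM against 0.353 to 1.92 FPKM. The genotype label of 6 samples conflicts with the title, and in all 12 samples these levels followed the title, which set the groups. Muscle fibre markers were present in all samples, with 8 or 9 of 10 genes at 1 FPKM or more. Libraries stood apart in several marker sums, and 1 such pattern touches many interleukin receptors. Replicate 2 of the chow-fed WT mice and replicates 1 and 3 of the chow-fed KO mice had summed B cell markers of 73.8, 86.4 and 86.4 FPKM, where the other 9 libraries lay between 3.04 and 9.985 FPKM. Their summed T cell markers were 49.6, 56.2 and 56.8 FPKM against 1.81 to 5.33 FPKM, and their summed lymph node stroma and homing markers were 83.0, 114.0 and 124.0 FPKM against 2.48 to 6.33 FPKM. The 2 KO libraries among them were also highest in summed white adipocyte markers (4513 and 4115 FPKM, others at most 2272) and mast cell and basophil markers (78.6 and 80.6 FPKM, others at most 57.6). Replicate 2 of the fat-fed WT mice had summed skin and hair follicle keratinocyte markers of 46.28 FPKM, against 3.148 to 8.915 FPKM in the other libraries. The part of these markers in the interleukin differences was not tested.

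Most interleukin ligands were near or at 0 in this muscle, while most receptor families were detected. Of the 82 genes, 9 were listed at 0 in every sample, 36 were above 0 but never reached 1 FPKM, and 2 reached 1 FPKM in 1 or 2 samples. The other 35 reached 1 FPKM in 3 or more samples and were tested, and 20 of them were at 1 FPKM or more in every sample. Only 7 of the 39 ligand genes passed this filter, against 28 of the 43 other genes. The 7 ligands were Il15, Il34, Il33, Il12a, Il17d, Il16 and Il18. The 7 IL-10 family ligands were all below the filter, and 4 of them were at 0 in every sample. Among the classical inflammatory ligands, Il1b lay between 0.0685 and 0.895 FPKM with a median of 0.243 FPKM. Il6 lay between 0 and 0.306 FPKM, and Il1a between 0 and 0.280 FPKM. Il10, a ligand that restrains inflammation, was above 0 in 8 of the 12 samples and had its highest value, 0.491 FPKM, in replicate 2 of the fat-fed KO mice. All 7 receptor chains of the common gamma chain family passed the filter, although 4 of them did so only through the 3 libraries with high lymphocyte markers.

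**Figure D1:**
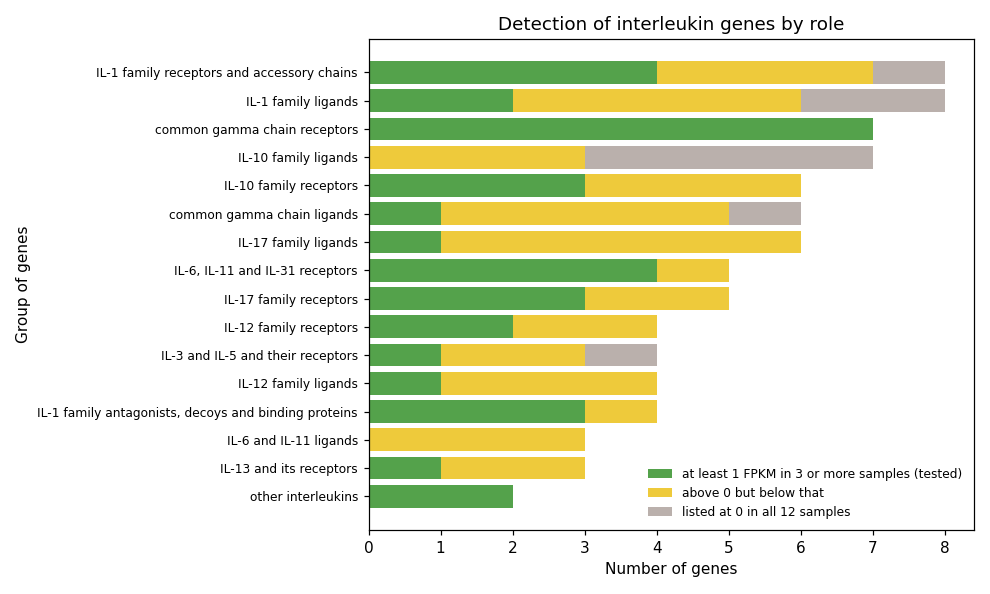
Number of genes in each group of interleukins and receptors (horizontal axis, genes), split into those that passed the filter of 1 FPKM in 3 samples (green), those above 0 that did not (yellow) and those listed at 0 in all 12 samples (grey). All 7 common gamma chain receptors passed, while none of the 7 IL-10 family ligands did.

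The highest levels belonged to the receptor chains of the IL-6 and IL-11 family and to the IL-15 pair. Il11ra1, the IL-11 receptor chain, had the highest mean over the 12 samples, 26.1 FPKM, with a range from 22.9 to 32.5 FPKM. It shares 29.6% of its stretches of 50 bases with Il11ra2, a near copy in which 59.3% of such stretches are found in Il11ra1, so the split of reads between them is uncertain, and its exons overlap those of a chemokine gene on the other strand. Il6st, which encodes gp130, followed at 21.7 FPKM, with a range from 15 to 26 FPKM. Il15 came next at 10.1 FPKM, before its private receptor chain Il15ra at 9.90 FPKM. Il10rb, a chain shared by the IL-10, IL-22 and interferon lambda receptors, had a mean of 9.24 FPKM. Il34, a ligand of the macrophage growth factor receptor, had a mean of 7.17 FPKM and the narrow range of 6.36 to 8.76 FPKM. Il33, an alarmin of stromal cells, had 5.19 FPKM, Il12a, a subunit of IL-12 and IL-35, 4.45 FPKM, and Il3ra, the IL-3 receptor chain, 3.86 FPKM. Il2rg, the common gamma chain, stood among them at 5.58 FPKM by mean but only 2.68 FPKM by median.

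**Figure D2:**
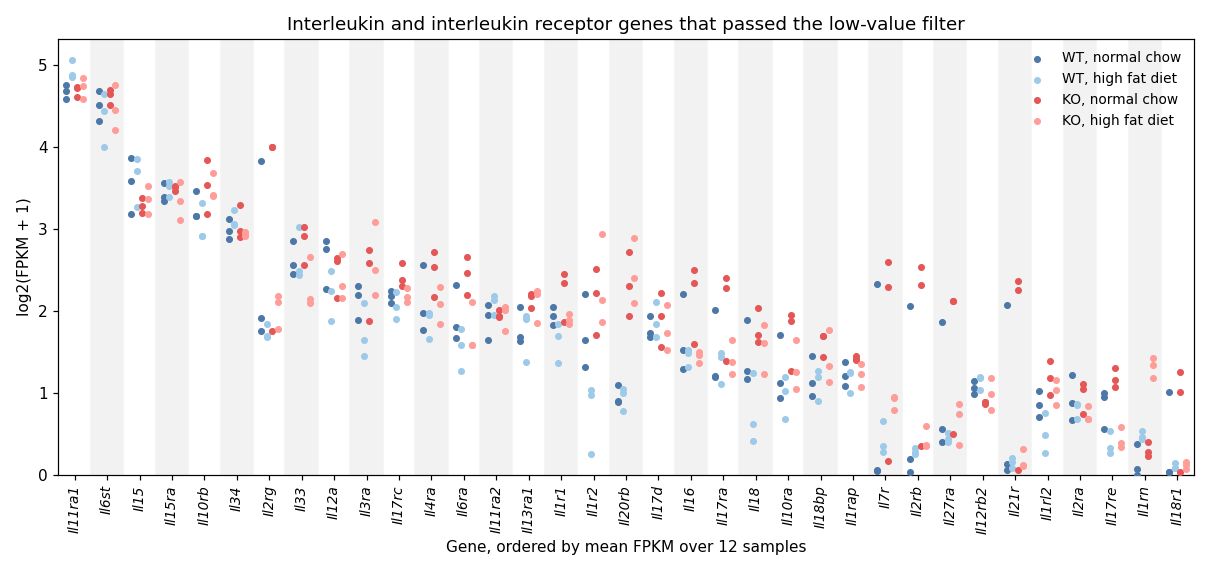
Level of each of the 35 tested genes in each of the 12 samples (vertical axis, log2(FPKM + 1), genes ordered by mean FPKM from left to right), with 1 point per sample coloured by group. The KO points of Il20rb lie above its WT points and the fat-fed KO points of Il1rn above its others, while the points of Il2rg, Il7r, Il2rb, Il27ra, Il21r and Il18r1 split into 3 high libraries and 9 low ones.

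Groups were compared by limma, applied to log2(FPKM + 1) of all 11945 genes that passed the filter. A fold change on this scale is smaller than the true one where values are low. The 4 comparisons between groups share samples, as each group enters a pair of them. With p-values adjusted over all genes by the Benjamini-Hochberg method and a threshold of 0.05, 1 of the 35 genes, Il20rb, passed between fat-fed KO and WT mice, where 0.109% of all tested genes did. Averaged over both diets, 2 of 35 passed for genotype, Il20rb and Il1rn, both higher in KO mice, against 0.862% of all tested genes. Averaged over both genotypes, Il1rn alone passed for diet, against 0.0586%. Il1rn reached 1 FPKM only in the fat-fed KO samples, and Il20rb would not have passed the filter without KO samples. These calls were favoured by selection, so the counts cannot be read as an excess over all tested genes. None of the 35 passed between chow-fed KO and WT mice, where 0.0586% of all tested genes did, between the diets in WT mice, where 0.1% did, between the diets in KO mice, where 0% did, or for the interaction of diet and genotype, where 0% did.

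More genes had an unadjusted p under 0.05 in limma. On normal chow, 5 of 35 genes were past it, all higher in KO mice, or 14.3% against 16.7% of all tested genes. On high fat diet it was 8 of 35, of which 7 were higher in KO mice, or 22.9% against 16.2%. Averaged over diets it was 13 of 35, all higher in KO mice, or 37.1% against 26.5%. For diet, it was 6 of 35 in WT mice, or 17.1% against 8.12% of all tested genes, 8 of 35 in KO mice, or 22.9% against 11.3%, and 12 of 35 averaged over genotypes, or 34.3% against 13.9%. Of these 12, 10 were lower on high fat diet. For the interaction it was 2 of 35, Il1rn and Il1r2, against 6.25%. Of the genes counted here, Il21r, Il27ra and Il2rb passed the filter only through the 3 libraries high in lymphocyte markers, all chow-fed. Il17re did so only through 4 chow-fed samples and Il1rn only through the 3 fat-fed KO samples. Il20rb and Il1rl2 would not have passed without KO samples. Selection favoured these differences, so the shares cannot be read as an excess over all tested genes.

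The direction shared by many of these genes moved with the 3 libraries high in lymphocyte markers. Of the 35 genes, 6 passed the filter only through these libraries and Il17re only through 4 chow-fed samples. The same 35 genes were kept when the libraries were left out. Selection thus favoured a fall on high fat diet in these genes and, for the 6, its loss without the libraries. Between chow-fed KO and WT mice the median log2 fold change of the 35 genes was 0.32 and 32 were higher in KO mice. Over all tested genes the median was -0.03 and 45.0% were higher. Without the 3 libraries, which leaves 1 KO and 2 WT samples, the median of the 35 genes was 0.11 and 24, or 68.6%, were higher. Over all tested genes the median was then -0.03 and 43.8% were higher. Between the diets, the median of the 35 genes was -0.21 in WT mice and -0.20 in KO mice with all libraries. Without the 3 libraries these medians were 0.02 and 0.01. On high fat diet, where none of the 3 libraries enters, the median for KO against WT mice was 0.15, with 26 of 35 higher in KO mice. Over all tested genes the median was -0.01 and 47.1% were higher. Il1rn passed the filter only through fat-fed KO samples, and Il20rb and Il1rl2 would not have passed without KO samples. Selection favoured this direction, so the share cannot be read as an excess over all tested genes. Summed macrophage markers (137.5 to 211.9 FPKM in WT and 242.1 to 528.9 FPKM in KO mice) and white adipocyte markers (590.6 to 1730 against 1800 to 2272 FPKM) were also higher in the fat-fed KO libraries without overlap. Their part in the direction of the 35 genes was not tested.

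**Figure D3:**
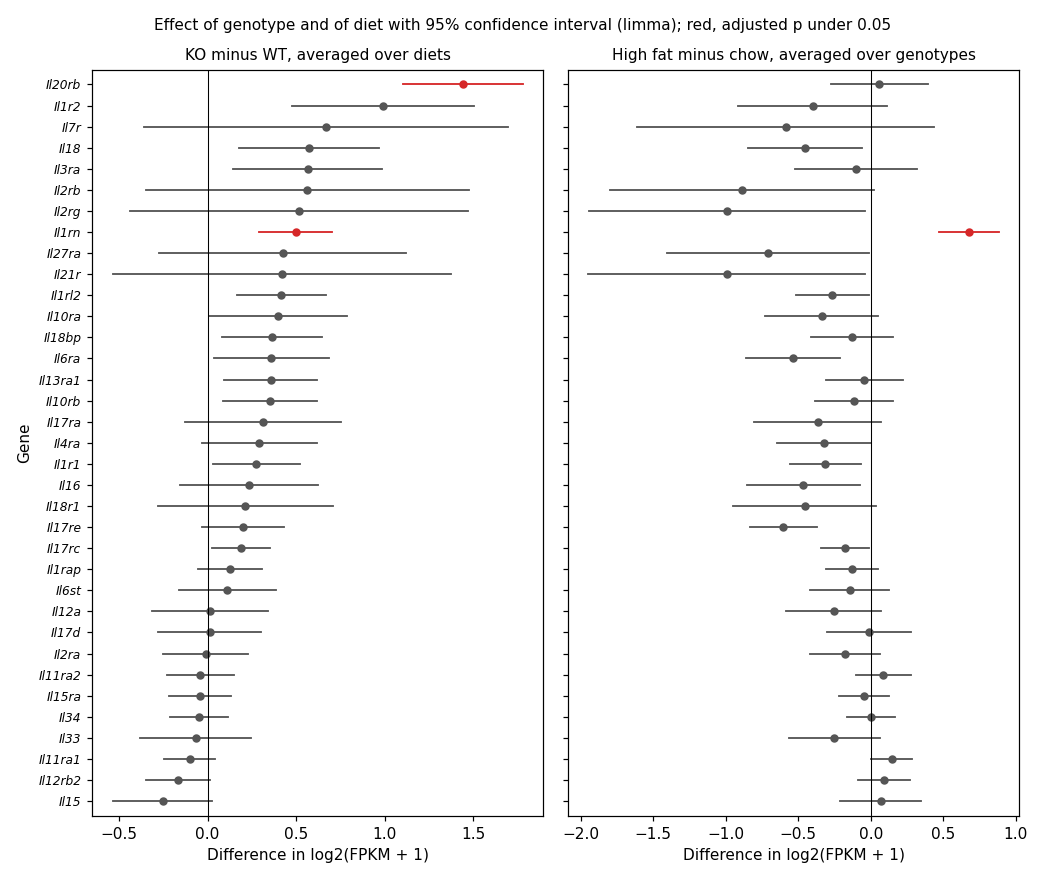
Difference in log2(FPKM + 1) with its 95% confidence interval for each of the 35 tested genes, for KO minus WT mice averaged over diets (left) and for high fat diet minus normal chow averaged over genotypes (right), with adjusted p under 0.05 in limma in red. Il20rb (1.44) and Il1rn (0.50) are red on the left, and Il1rn (0.68) on the right, while the widest intervals belong to Il21r, Il2rg, Il7r and Il2rb.

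Il20rb had the lowest p of the 35 genes between genotypes. It encodes the beta chain of the receptors for IL-19, IL-20 and IL-24, which are best known in skin. On normal chow it was 0.858, 0.855 and 1.14 FPKM in WT mice and 2.82, 3.95 and 5.60 FPKM in KO mice. In fat-fed mice it was 0.718, 0.989 and 1.06 FPKM in WT mice and 4.28, 6.43 and 3.29 FPKM in KO mice. All KO samples exceeded all WT samples, and 6 KO and 2 WT samples reached the filter's 1 FPKM. The gene therefore passed the filter only with KO samples, so a difference in this direction was favoured by its selection. With no filter on low values, its adjusted p for genotype averaged over diets was 0.0074 in limma. The samples of the 2 diets overlapped within each genotype. Means were 0.952 ± 0.165 and 4.12 ± 1.40 FPKM in chow-fed and 0.921 ± 0.179 and 4.66 ± 1.60 FPKM in fat-fed WT and KO mice (SD, n = 3 each), 4.33-fold and 5.06-fold higher in KO mice. The order of the group means was fat-fed KO, chow-fed KO, chow-fed WT and fat-fed WT, and both neighbours of the same genotype differed by less than their SD.

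The log2 fold change of Il20rb averaged over diets was 1.44 with a 95% confidence interval from 1.11 to 1.78, and it rose in KO mice (adjusted p = 0.00231 in limma). In the 12 fits without 1 sample this adjusted p lay between 0.00122 and 0.0132, and without the 3 libraries high in lymphocyte markers it was 0.0303. On normal chow alone the log2 fold change was 1.36 (adjusted p = 0.0810), which misses the threshold. Without replicate 1 of the chow-fed KO mice it was 1.55 (adjusted p = 0.0299). On high fat diet it was 1.53 and the adjusted p was 0.0234, but the call was lost without replicate 1 of the WT mice (adjusted p = 0.108), without replicate 1 of the KO mice (0.0867) and without replicate 2 of the KO mice (0.107). The diet difference was -0.02 in WT mice and 0.14 in KO mice, with 95% intervals from -0.50 to 0.45 and from -0.33 to 0.62, and the interaction was 0.17 with an interval from -0.51 to 0.84.

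The known partners of the IL-20 receptor beta chain and their ligands were at or near 0 in the same muscle. Il20ra, the alpha chain that pairs with it for IL-19, IL-20 and IL-24, was above 0 in 2 of the 12 samples and reached 0.0238 FPKM. Il22ra1, the other alpha chain it can pair with, was above 0 in 7 samples and reached 0.0498 FPKM. Of the ligands, Il19 was above 0 in 3 samples, with a highest value of 0.114 FPKM, and Il20 and Il24 were listed at 0 in all 12. Since the number of reads is unknown, no limit can be set on these levels.

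The gene lies on the minus strand of chromosome 9 at chr9:100457719-100486788 in build GRCm38, with no annotated exon of another gene across its own. Cryab and Hspb2 lie on the same chromosome, at chr9:50751325-50756636 and chr9:50751078-50752354, 49.7 Mb away. The 250 bases before the RefSeq start of Il20rb are printed with those of Il1rn and Il18 because Il20rb and Il1rn are the members that passed the test between genotypes and Il18 lies nearest to the deletion. The Il20rb window lies inside the gene span given above, since that span comes from another annotation with an earlier start. Capitals mark matches on either strand to the E-box CANNTG, bound by myogenic factors such as MyoD, to the NF-kB motif GGGANNNNCC or to the STAT motif TTCNNNGAA. RefSeq promoters of the same length hold these motifs in 66.2%, 17.6% and 7.0% of 32851 cases.
Il20rb, minus strand, chr9:100486474-100486723: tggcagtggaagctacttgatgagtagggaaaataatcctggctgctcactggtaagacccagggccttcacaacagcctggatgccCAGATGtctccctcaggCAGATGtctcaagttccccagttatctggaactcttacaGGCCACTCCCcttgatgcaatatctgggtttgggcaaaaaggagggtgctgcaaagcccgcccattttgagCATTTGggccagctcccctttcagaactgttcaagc
Il1rn, plus strand, chr2:24336610-24336859: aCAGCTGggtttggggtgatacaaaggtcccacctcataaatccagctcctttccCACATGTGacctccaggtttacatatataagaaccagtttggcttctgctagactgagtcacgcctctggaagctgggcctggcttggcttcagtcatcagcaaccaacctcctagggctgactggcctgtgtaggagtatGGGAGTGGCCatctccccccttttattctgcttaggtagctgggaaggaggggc
Il18, plus strand, chr9:50554450-50554699: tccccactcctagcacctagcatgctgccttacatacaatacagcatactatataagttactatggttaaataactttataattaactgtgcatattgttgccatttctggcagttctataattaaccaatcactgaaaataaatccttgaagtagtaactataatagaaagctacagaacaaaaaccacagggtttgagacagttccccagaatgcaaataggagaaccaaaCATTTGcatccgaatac
The Il20rb window holds 3 E-box matches, from 163 to 158, 146 to 141 and 36 to 31 bases before the start, and 1 NF-kB match from 107 to 98 bases before it. The Il1rn window, the first of 3 annotated starts, holds 3 E-box matches, of which 2 overlap, and 1 NF-kB match from 54 to 45 bases before the start. The Il18 window holds 1 E-box match from 17 to 12 bases before the start. None of the 3 windows holds a STAT match. A match is a stretch of letters and not evidence of a bound site.

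The genes whose levels followed Il20rb most closely over the 12 samples were Cpne2, Serpina3i, Hsf2bp, Rrad and Serpina3h, with Pearson's r of log2(FPKM + 1) from 0.972 to 0.987. These are descriptions over samples that share genotype and library. Rrad, a small GTPase of muscle, was between 1.72 and 5.69 FPKM in WT mice and between 12.9 and 44.2 FPKM in KO mice. Serpina3h, a serine protease inhibitor, was between 0.0941 and 1.10 FPKM in WT mice and between 5.26 and 22.1 FPKM in KO mice. Genes known to rise in denervated or injured fibres were also higher in several KO samples. Their summed level was between 92.4 and 108.2 FPKM in the WT samples, 84.0, 120.1 and 150.3 FPKM in the chow-fed KO mice and 138.5, 138.0 and 105.6 FPKM in the fat-fed KO mice, and 7 to 9 of 11 genes reached 1 FPKM in WT samples against 9 or 10 in KO samples. None of the 9 tested genes of this list passed the adjusted threshold for genotype averaged over diets, where 0.862% of all tested genes did. At an unadjusted p under 0.05 in limma, where 26.5% of all tested genes were, 5 were higher and 1 lower. The muscle acetylcholine receptor subunit Chrna1 had a log2 fold change of 0.84 (adjusted p = 0.0588), whereas the myogenic factor Myod1 had -0.36 (adjusted p = 0.1002) and Musk, the receptor of the nerve-muscle synapse, 0.32 (adjusted p = 0.562). Their part in the Il20rb difference was not tested.

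**Figure D4:**
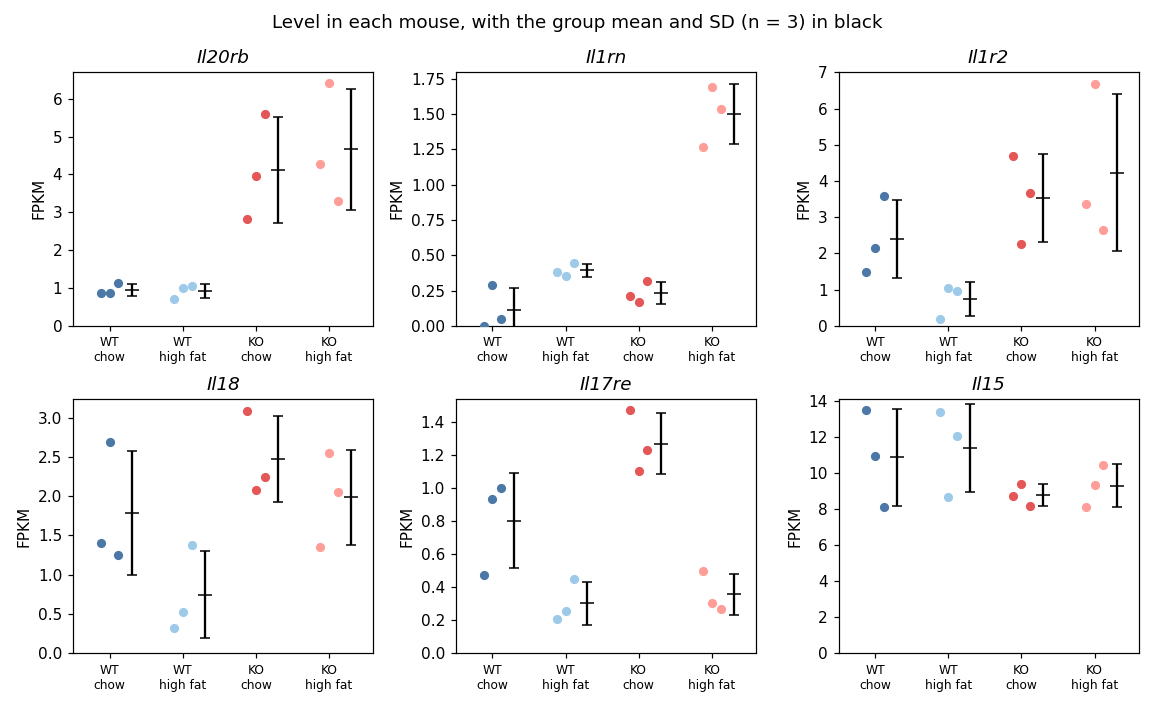
FPKM (vertical axes, starting at 0) of Il20rb, Il1rn, Il1r2, Il18, Il17re and Il15 in each mouse, with 3 points per group and the group mean ± SD (n = 3) in black beside them. The KO mice lie between 2.82 and 6.43 FPKM for Il20rb and the WT mice between 0.718 and 1.14 FPKM, while Il1rn exceeds 1 FPKM only in the fat-fed KO mice.

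In the IL-1 system, the gene that passed the test was Il1rn, which was highest in the fat-fed KO mice. It encodes the IL-1 receptor antagonist, which occupies the receptor without signalling. It was 0, 0.292 and 0.0458 FPKM in the chow-fed WT mice and 0.381, 0.355 and 0.445 FPKM in those on high fat diet. In KO mice it was 0.210, 0.168 and 0.319 FPKM when chow-fed and 1.27, 1.69 and 1.53 FPKM when fat-fed. The fat-fed KO mice were above all other samples, and within each genotype the diets did not overlap. Il1rn passed the filter only through these 3 samples, so a difference that involves them was built into its selection. With no filter on low values, its adjusted p in limma was 0.0310 for genotype averaged over diets and 0.0125 for diet averaged over genotypes.

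Averaged over genotypes, Il1rn rose on high fat diet by a log2 fold change of 0.68 (95% interval from 0.47 to 0.88, adjusted p = 0.0333 in limma). Averaged over diets it rose in KO mice by 0.50, with an interval from 0.29 to 0.71 (adjusted p = 0.0455). In KO mice the diet difference was 1.02 (0.72 to 1.31, adjusted p = 0.0870), and between genotypes on high fat diet it was 0.84 (0.55 to 1.13, adjusted p = 0.0506). The interaction was 0.69 (unadjusted p = 0.00396, adjusted p = 0.593). Both averaged calls were lost without replicate 1 (adjusted p = 0.126 for genotype and 0.0616 for diet) or replicate 3 (0.0856 and 0.0902) of the chow-fed WT mice, without replicate 2 of the fat-fed WT mice (0.0702 and 0.0752) and without replicate 1 of the chow-fed KO mice (0.0622 and 0.0875). The genotype call was also lost without replicate 1 of the fat-fed WT mice (0.0863) or replicate 3 of the chow-fed KO mice (0.0867), and the diet call without replicate 3 of the fat-fed WT mice (0.0865). Without any 1 of the fat-fed KO mice, Il1rn fell below the filter and was not tested. Only 9 fits without 1 sample therefore hold it. Without the 3 libraries high in lymphocyte markers the adjusted p was 0.195 for genotype and 0.147 for diet. With a pseudocount of 0.1 the log2 fold changes were 1.28 for genotype (adjusted p = 0.0812) and 1.87 for diet (adjusted p = 0.103), and with quantile normalization the genotype difference was 0.36 (adjusted p = 0.0574).

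Il1r2, the decoy receptor that binds IL-1 without signalling, had the largest log2 fold change of the 35 genes between fat-fed KO and WT mice. It was 1.49, 2.14 and 3.597 FPKM in chow-fed WT mice and 0.191, 1.05 and 0.956 FPKM in fat-fed WT mice. In KO mice it was 4.68, 2.26 and 3.66 FPKM when chow-fed and 3.37, 6.69 and 2.64 FPKM when fat-fed. With high fat feeding every KO sample was above every WT sample, a log2 fold change of 1.56 (0.83 to 2.29, unadjusted p = 0.000656, adjusted p = 0.0732). In WT mice the difference between diets was -0.97 (-1.70 to -0.24, adjusted p = 0.380), in KO mice 0.17 (-0.56 to 0.90), and the interaction 1.14 (unadjusted p = 0.0340, adjusted p = 0.759).

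The other IL-1 chains had smaller differences. Il1r1, the signalling receptor, had means of 2.82 ± 0.293, 2.12 ± 0.509, 3.72 ± 0.970 and 2.72 ± 0.146 FPKM in chow-fed WT mice, fat-fed WT mice, chow-fed KO mice and fat-fed KO mice (SD, n = 3 each). Its 3 highest values were those of the libraries high in lymphocyte markers. Il1rap, the accessory protein, lay between 1.00 and 1.72 FPKM in the 12 samples, and no comparison of it had an unadjusted p under 0.05. Il1rl2, the receptor of the IL-36 cytokines, had a log2 fold change of 0.42 between KO and WT mice averaged over diets (adjusted p = 0.0733). Of the IL-36 ligands, Il1f9 lay between 0.0613 and 0.637 FPKM, while Il1f6 and Il1f8 were listed at 0 in all samples. Il33 had its lowest values, 3.28 and 3.42 FPKM, in replicates 2 and 3 of the fat-fed KO mice, and its receptor Il1rl1 stayed between 0.0878 and 0.627 FPKM. In KO mice the diet difference of Il33 was -0.54 (unadjusted p = 0.0218, adjusted p = 0.431).

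Neutrophils and macrophages are known sources of IL-1 decoy and antagonist transcripts, and their markers were read in the same libraries. Summed macrophage markers were 137.5, 197.0 and 211.9 FPKM in fat-fed WT mice and 342.2, 528.9 and 242.1 FPKM in fat-fed KO mice, without overlap, and 9 of 9 markers reached 1 FPKM in all of these but replicate 1 of the WT mice, where 7 did. On normal chow they were 196.5, 311.3 and 177.5 FPKM in WT mice and 394.6, 282.8 and 438.8 FPKM in KO mice. Summed neutrophil markers ran the other way on high fat diet, at 1171, 125.0 and 451.5 FPKM in WT mice and 42.8, 15.4 and 10.3 FPKM in KO mice. The part of these marker levels in the Il1rn and Il1r2 differences was not tested.

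Il18, a ligand of the IL-1 family that is made as a precursor and cut by caspase-1, was lowest in fat-fed WT mice. It was 1.40, 2.69 and 1.25 FPKM in chow-fed WT mice, with the highest value in the library high in lymphocyte markers, and 0.325, 0.529 and 1.37 FPKM in fat-fed WT mice. In KO mice it was 3.09, 2.07 and 2.25 FPKM when chow-fed and 1.35, 2.56 and 2.06 FPKM when fat-fed. Groups overlapped in each of the 4 comparisons, on high fat diet by replicate 3 of the WT mice and replicate 1 of the KO mice. The order of the means was chow-fed KO (2.47 ± 0.545), fat-fed KO (1.99 ± 0.607), chow-fed WT (1.78 ± 0.793) and fat-fed WT (0.742 ± 0.555), and the first 3 neighbours in this order differed by less than their SD. Averaged over diets the log2 fold change between KO and WT mice was 0.57 (0.18 to 0.97, unadjusted p = 0.00834, adjusted p = 0.0905). Without replicate 3 of the fat-fed WT mice it was 0.70 (adjusted p = 0.0457), and without the 3 libraries high in lymphocyte markers 0.60 (adjusted p = 0.388). Under high fat diet it was 0.80 (0.25 to 1.36, adjusted p = 0.154) and on normal chow 0.34 (-0.21 to 0.90). In WT mice the diet difference was -0.69 (-1.24 to -0.13, adjusted p = 0.429) and in KO mice -0.23 (-0.78 to 0.33).

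Il18 lies on the plus strand at chr9:50554827-50581840 in GRCm38, 169 kb from Cryab, which makes it the interleukin gene nearest to the deleted pair. Il10ra, the private chain of the IL-10 receptor, is the other member within a few megabases, at chr9:45253837-45269149 and 5.5 Mb away. Of the proteins around IL-18, Il18bp, which binds and blocks it, was between 0.863 and 2.41 FPKM and had a log2 fold change of 0.36 between KO and WT mice averaged over diets (adjusted p = 0.117). Its exons overlap those of a neighbouring gene. The receptor chain Il18r1 was 1.01, 1.39 and 1.01 FPKM in the libraries high in lymphocyte markers, against 0.0228 to 0.113 FPKM elsewhere. The other chain, Il18rap, was 0.1794, 0.384 and 0.3296 FPKM in these libraries. Elsewhere it reached 0.1795 FPKM, in replicate 1 of the fat-fed WT mice. Casp1, the enzyme that cuts the precursor, was 0.904, 1.72 and 2.45 FPKM in fat-fed WT mice and 2.94, 4.63 and 2.62 FPKM in fat-fed KO mice. Its log2 fold change averaged over diets was 0.56 (adjusted p = 0.0885). Among the genes that followed Il18 most closely over the 12 samples were Tspo, Slc46a1, Vps4b and Oas2 (Pearson's r from 0.937 to 0.946).

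Il15, which encodes the muscle cytokine that supports memory T cells and natural killer cells, overlapped between all 4 groups and passed no test. It was 13.5, 10.97 and 8.11 FPKM in chow-fed WT mice, 13.4, 8.66 and 12.1 FPKM in fat-fed WT mice, 8.73, 9.38 and 8.17 FPKM in chow-fed KO mice and 8.09, 9.34 and 10.46 FPKM in fat-fed KO mice. The 4 highest values came from WT samples, but each group overlapped each other group. The order of the means was fat-fed WT (11.4 ± 2.44), chow-fed WT (10.9 ± 2.71), fat-fed KO (9.30 ± 1.19) and chow-fed KO (8.76 ± 0.608), and each difference between neighbours in it was smaller than the larger of their SDs. Averaged over diets the log2 fold change between KO and WT mice was -0.25 with a 95% interval from -0.53 to 0.02 (adjusted p = 0.224). The diet difference was 0.07 in either genotype, with 95% intervals from -0.33 to 0.46 in WT mice and from -0.32 to 0.47 in KO mice, and the interaction was 0.01 (-0.55 to 0.56).

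The receptor of IL-15 was represented unevenly. Il15ra, which presents the cytokine to neighbouring cells, lay between 7.59 and 10.9 FPKM, and no comparison of it had an unadjusted p under 0.05. Il2rb, the signalling chain, was between 0.0211 and 0.514 FPKM in 9 libraries and 3.17, 3.97 and 4.80 FPKM in the 3 high in lymphocyte markers. Il15 lies on the minus strand at chr8:82331632-82403222 in GRCm38. The genes whose levels followed it most closely were Exosc7, Etohd2, Olfr558, Uckl1 and Hscb (Pearson's r from 0.913 to 0.972 over 12 samples). Exosc7, a subunit of the RNA exosome, ranged only from 11.3 to 15.5 FPKM.

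Among the IL-17 receptors, Il17re was low on high fat diet in both genotypes. It encodes the private chain for IL-17C, an epithelial cytokine, and its ligand gene Il17c was above 0 in 3 samples only. Il17re was 0.476, 0.932 and 1.00 FPKM in chow-fed WT mice and 1.47, 1.11 and 1.23 FPKM in chow-fed KO mice. In fat-fed mice it was 0.204, 0.253 and 0.448 FPKM in WT mice and 0.497, 0.302 and 0.265 FPKM in KO mice. Within each genotype the diets did not overlap, although the lowest chow-fed and the highest fat-fed WT samples lay side by side. The log2 fold change averaged over genotypes was -0.60 (unadjusted p = 0.000127, adjusted p = 0.0752). Without replicate 1 of the chow-fed WT mice it was -0.67 (adjusted p = 0.0445). The gene passed the filter through 4 samples on normal chow, so a difference in this direction was favoured by its selection. Il17ra, the chain shared by the family, had its 3 highest values, from 3.03 to 4.30 FPKM, in the libraries high in lymphocyte markers. Il17rc, the other chain of the IL-17A receptor, lay between 2.72 and 5.003 FPKM, and its difference between KO and WT mice averaged over diets was 0.19 (adjusted p = 0.144).

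The IL-6 family receptors and several other chains passed no test after adjustment. Il6st had means of 21.8 ± 2.86, 19.9 ± 4.53, 23.6 ± 1.60 and 21.5 ± 4.30 FPKM in chow-fed WT mice, fat-fed WT mice, chow-fed KO mice and fat-fed KO mice (SD, n = 3 each), and no comparison of it had an unadjusted p under 0.05. Il6ra, the private IL-6 chain, had a log2 fold change of -0.53 for diet averaged over genotypes (unadjusted p = 0.00403, adjusted p = 0.194), and its 3 highest values were in the libraries high in lymphocyte markers, without which it was -0.31 (adjusted p = 0.753). Il11ra1 was 28.5, 32.5 and 27.9 FPKM in fat-fed WT mice, above the 25.9, 24.8 and 23.1 FPKM of chow-fed WT mice. This was a log2 fold change of 0.26 (unadjusted p = 0.0181, adjusted p = 0.415), and in KO mice it was 0.03. Il3ra was 1.73, 2.13 and 3.28 FPKM in fat-fed WT mice and 3.57, 7.46 and 4.64 FPKM in fat-fed KO mice, a log2 fold change of 0.86 (0.26 to 1.45, adjusted p = 0.154). Il10rb had 0.35 (adjusted p = 0.110) and Il10ra 0.40 (adjusted p = 0.181) for KO against WT mice averaged over diets. Without the 3 libraries high in lymphocyte markers, which held the highest values of Il10ra, it was 0.29 for Il10ra (adjusted p = 0.508). Il12a had -0.43 for diet in WT mice (unadjusted p = 0.0684). Il12rb2, an IL-12 receptor chain whose exons overlap those of another gene, had -0.18 for chow-fed KO against WT mice (unadjusted p = 0.142).

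Many receptor chains were high in the same 3 libraries. In 13 of the 35 tested genes the libraries high in lymphocyte markers held the 3 highest values of the 12, as they did in 7.35% of all tested genes. Of the 13, 6 passed the filter only through these libraries (Il7r, Il2rb, Il27ra, Il21r, Il2ra and Il18r1), so their place there was fixed by selection, and the count supports nothing. The 13 were Il2rg, Il4ra, Il6ra, Il1r1, Il16, Il17ra, Il10ra, Il7r, Il2rb, Il27ra, Il21r, Il2ra and Il18r1, most of which are known receptors of T and B cells. Il2rg was 13.2, 15.03 and 14.9 FPKM in them and between 2.21 and 3.52 FPKM in the other 9. Il7r, the receptor of naive T cells for IL-7, was 4.01, 3.88 and 5.03 FPKM against 0.0312 to 0.933 FPKM. Il21r, a chain of B and T cells, was 3.21, 3.75 and 4.15 FPKM against 0.0357 to 0.242 FPKM. Il27ra, whose exons overlap those of a gene on the other strand, as those of Il16 do, was 2.62, 3.34 and 3.36 FPKM against 0.286 to 0.821 FPKM. The same held for 7 of the 38 untested interleukin genes that were above 0, or 18.4%, against 7.99% of all such untested genes. They were Il7, Il17rb, Il12rb1, Il1a, Il12b, Il23r and Il21. Some of these were near 0, with Il23r at most 0.0897 FPKM and Il21 at most 0.0677 FPKM. The 2 KO libraries also had the highest relative depth of the 12, 1.361 and 1.315, which favours detection there. The 3 libraries were picked from these same data, so this share supports nothing either. Il7, a ligand made by lymph node stroma, was 0.619, 1.01 and 1.13 FPKM in the 3 libraries and at most 0.274 FPKM elsewhere. Since 2 of these libraries are KO and 1 is WT, and all are on normal chow, diet and genotype differences of these genes include that split. Without them the diet difference of Il2rg averaged over genotypes was 0.09 in place of -0.99.

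**Figure D5:**
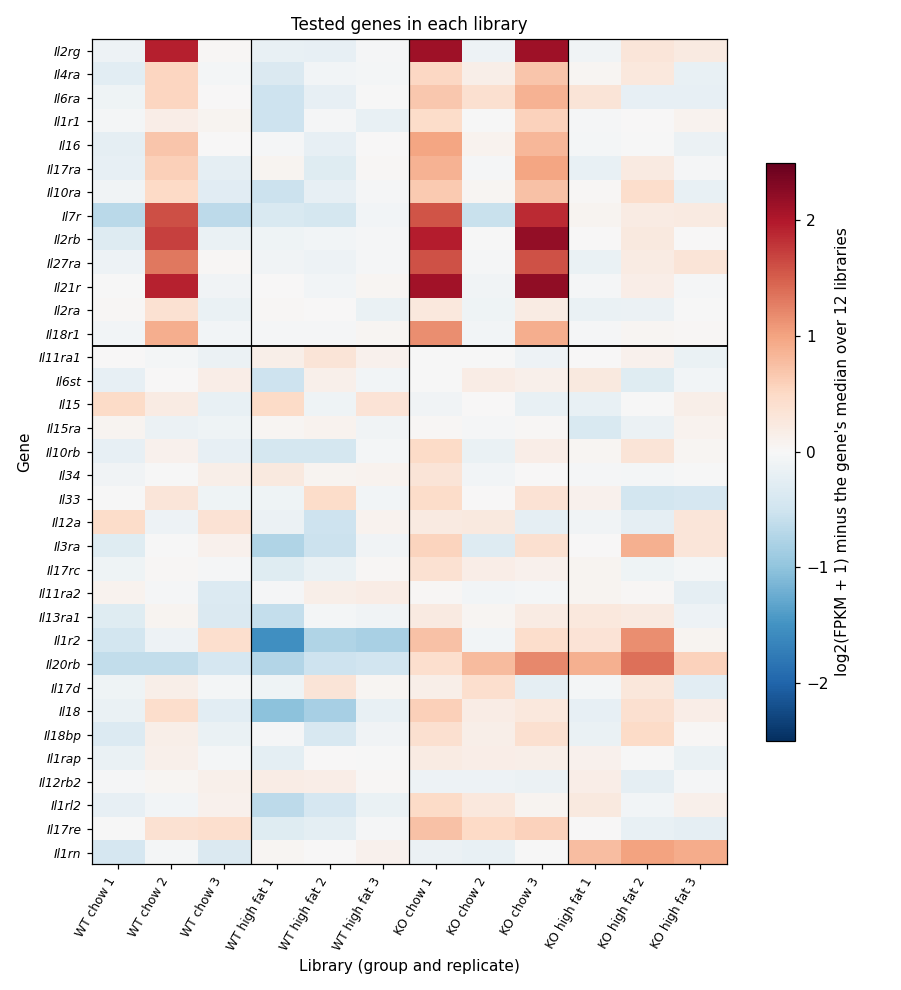
Level of the 35 tested genes (rows) in the 12 libraries (columns, 3 per group between vertical lines) as log2(FPKM + 1) minus the gene's median over the libraries, red above and blue below it. The 13 genes above the horizontal line have their 3 highest values in replicate 2 of the chow-fed WT mice and replicates 1 and 3 of the chow-fed KO mice, while Il20rb is red in the 6 KO libraries.

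The genes that act downstream of these receptors, and relatives that share their chains, were read from lists of JAK kinases and STAT factors, inhibitors of JAK-STAT signalling, gp130 and beta-common relatives, IL-1 and IL-17 adaptors, and inflammasome genes. For genotype averaged over diets, where 0.862% of all tested genes passed the adjusted threshold, 1 of the 11 tested relatives did, and so did 0 of 9 tested JAK and STAT genes, 0 of 15 inhibitors, 0 of 12 adaptors and 0 of 4 inflammasome genes. At an unadjusted p under 0.05, where 26.5% of all tested genes were, the counts higher and lower in KO mice were 2 and 0 of the relatives, 2 and 1 of the JAK and STAT genes, 0 and 2 of the inhibitors, 2 and 1 of the adaptors and 1 and 0 of the inflammasome genes. For diet averaged over genotypes no gene of the 5 lists passed the adjusted threshold in limma, as 0.0586% of all tested genes did. At an unadjusted p under 0.05, where 13.9% of all tested genes were, there were 1 of 9 JAK and STAT genes, 1 of 15 inhibitors and 2 of 12 adaptors.

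The relative that passed was Crlf2, the receptor chain for TSLP, which pairs with Il7r. It was 9.30, 9.21 and 10.1 FPKM in fat-fed WT mice and 14.3, 16.4 and 14.0 FPKM in fat-fed KO mice, a rise with a log2 fold change of 0.59 (adjusted p = 0.0400 in limma). On normal chow it was 10.2, 11.03 and 11.1 FPKM in WT mice and 12.4, 10.4 and 12.6 FPKM in KO mice. Averaged over diets it rose by 0.36 (adjusted p = 0.0418). Its partner Il7r was 0.269, 0.212 and 0.581 FPKM in fat-fed WT mice and 0.724, 0.908 and 0.933 FPKM in fat-fed KO mice, below 1 FPKM in every one of these samples, and the ligand Tslp lay between 0.635 and 2.44 FPKM in the 12 samples. Socs2, an inhibitor of growth hormone and cytokine signalling, was 7.16, 7.90 and 5.83 FPKM in fat-fed WT mice and 4.43, 3.31 and 5.31 FPKM in fat-fed KO mice, with a log2 fold change of -0.58 (adjusted p = 0.128). Traf3ip2, the adaptor of the IL-17 receptors, had a log2 fold change of -0.29 for diet averaged over genotypes (adjusted p = 0.182).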

How the data were processed

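RNA-seq of 12 muscle samples was analysed from the processed tables. The authors sequenced paired-end libraries made with a kit that does not mark strand, so reads of genes that overlap on opposite strands cannot be told apart. The submitters' processing notes name TopHat2 2.0.8b, Cuffdiff 2.1.1 and build mm10. The deposited values are FPKM per gene symbol, 1 table per sample with replicates not pooled. Counts of reads were not used here, so no count test was run.

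Groups were taken from sample titles. Genes with at least 1 FPKM in at least 3 samples (11945) were tested on log2(FPKM + 1) with limma 3.58.1 (R 4.3.3). The fit held all 4 group means with a mean-variance trend and Benjamini-Hochberg adjustment over all genes at 0.05. Contrasts were diet in each genotype, genotype on each diet, the interaction and both averages, 7 in all. On simulated data the fit was tested first. Intervals are 95% confidence intervals. The samples are described as independent, with 3 per group. The p-values rest on the spread between mice within groups, pooled over the 4 groups and moderated over all tested genes. Precision is limited by depth, which is unknown in reads. The relative depth came from the step between low values.

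The genes, the gene lists and the marker lists were chosen with earlier results of these data known, so no direction shown by a list is independent support. Genes named are Il15, Il18 and Il20rb, those past the threshold, the 3 largest differences each way per comparison, the 10 highest means, those on the chromosome of Cryab, the 8 with the most uneven levels over samples, and the 5 genes most like each of the first 3; Il17re and genes described as partners or ligands of these were named after their values were seen. Positions are from GENCODE M21 on GRCm38, the same assembly as mm10, in which all 82 genes were found. Promoters are from RefSeq on GRCm38.p6, in which 63 of 82 genes were matched. Descriptive values used Python 3.11.15, NumPy 2.4.6 and pandas 2.3.3, and figures Matplotlib 3.10.9. Alternatives were another pseudocount of 0.1, other filters, other scalings, robust moderation, blocking on replicate number, fitting just the compared groups, and each sample left out. Leaving out the 3 libraries high in lymphocyte markers was chosen after seeing the data. Results for 1 other gene are not reported here.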

Additional observations from a re-analysis of the deposited data

How the results depend on the processing

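Counts of members past the adjusted threshold in limma moved by at most a few genes. On high fat diet, KO against WT, the count of 1 was 2 with no filter, with robust moderation and without the 3 libraries high in lymphocyte markers, 0 with the replicate block, with only the 2 groups and with at least 1 FPKM in every sample, which removes Il20rb and Il1rn from the test, and 0 to 2 without 1 sample. On normal chow the count of 0 was 1 with a pseudocount of 0.1 and 0 to 1 without 1 sample. For genotype averaged over diets the count of 2 was 1 with a pseudocount of 0.1, the replicate block, quantile normalization and without the 3 libraries, 0 with at least 1 FPKM in every sample, and 1 to 6 without 1 sample. For diet averaged over genotypes the count of 1 was 0 with a pseudocount of 0.1, at least 1 FPKM in every sample, the replicate block and without the 3 libraries, and 0 to 1 without 1 sample. For diet in KO mice the count of 0 was 1, Il1rn, with no filter, quantile normalization and only the 2 groups.

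Il20rb on high fat diet kept a log2 fold change of 1.53 with the replicate block (adjusted p = 0.0551) and with only the 2 groups (0.0838), and ranged from 1.31 to 1.71 without 1 sample. On normal chow it was 1.96 with a pseudocount of 0.1 (adjusted p = 0.0469) and 1.16 to 1.55 without 1 sample. Il18 for genotype averaged over diets ranged from 0.49 to 0.70 and Il15 for diet averaged over genotypes from -0.0196 to 0.15 without 1 sample. Signs turned in differences that were not called, most of them near 0, with Il2rg (from -0.99) the exception. Il20rb for diet in WT mice was 0.0824 with quantile normalization, and the Il15 interaction was -0.0073 with median-of-ratios size factors, -0.0206 with quantile normalization and -0.10 without the 3 libraries, where Il15 for diet in KO mice was -0.0187 and Il2rg for diet averaged over genotypes 0.0891. Without 1 sample, the Il15 interaction ran from -0.16 to 0.18, Il15 for diet from -0.11 to 0.23 in WT and -0.0085 to 0.16 in KO mice, the Il20rb interaction from -0.0462 to 0.37, and Il20rb for diet from -0.0468 to 0.16 averaged, -0.0751 to 0.0548 in WT and -0.07 to 0.35 in KO mice. The cause was not tested. Of 1106 values for 68 results on single genes, 1043 kept direction and side of the threshold. Scaling moved the median of all genes by less than 0.1. Same-numbered samples were not paired, since their deviations correlated between -0.81 and 0.39, and the replicate block changed no call other than those given and the averaged Il1rn ones. Values under 1 FPKM rest on few reads of unknown number.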
